A study of Mus musculus with 8 samples.

Results

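To describe innate sensing in the liver under AGXT overexpression, the mRNA of 10 mouse genes was followed, the Toll-like receptors Tlr1, Tlr2, Tlr3, Tlr4, Tlr5, Tlr7, Tlr8 and Tlr13 and the co-receptors Cd14 and Ly96. They were picked by gene symbol from the 52636 Ensembl genes of the count tables, all 10 were found, and all 10 passed the filter on low counts along with 15248 tested genes in all. The livers came from 8 male C57BL/6J mice, 4 injected with AAV8-GFP (mice 303, 311, 314 and 315) and 4 with AAV8-AGXT (mice 308, 309, 316 and 319). AAV8 is an adeno-associated virus that reaches the liver, and it carried GFP or human AGXT, the peroxisomal enzyme that converts glyoxylate to glycine. All mice were of this wild-type strain, received the virus at 7 weeks of age, and from 8 weeks of age ate the MASH diet, rich in fat, fructose and cholesterol, for 24 weeks. The TBG promoter confined the transgene to hepatocytes, whereas RNA was taken from whole liver tissue, so that transcripts of all liver cells entered the 1 library made per mouse. P-values therefore measure the spread between mice.

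Toll-like receptors are membrane proteins that bind conserved molecules of microbes or of damaged cells and pass the signal on through the adaptors MyD88 and TRIF to NF-κB and interferon regulatory factors. TLR1, TLR2, TLR4 and TLR5 sit at the cell surface, where they sense lipoproteins, lipopolysaccharide and flagellin, and TLR3, TLR7, TLR8 and TLR13 sense nucleic acids in endosomes. CD14 and MD-2, the product of Ly96, hand lipopolysaccharide to TLR4. In the liver, which receives microbial products from the gut through the portal vein, Kupffer cells and other macrophages are a main site of these receptors, and hepatocytes, endothelial cells and stellate cells carry some of them too.

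Tlr5 was the single gene of the 10 that passed the test, and it rose, with a mean of 9.62 ± 2.48 CPM in AAV8-GFP mice and 18.7 ± 3.39 CPM under AAV8-AGXT (SD, n = 4 per group), where CPM are counts per 1e6 read pairs on genes after TMM scaling. Cd14 had the next smallest p-value and the opposite direction, with 26.04 ± 5.003 CPM in AAV8-GFP mice and 12.26 ± 5.201 CPM under AAV8-AGXT (SD, n = 4 per group), and did not pass. Of the 10 genes, 8 had a lower estimate in AAV8-AGXT mice, at a median log2 fold change of -0.35, beside 47.7% of all tested genes and a median of 0.02. In the quasi-likelihood test of edgeR, after Benjamini-Hochberg adjustment across all tested genes, 1 of 10 was called higher against 2.45% of all genes, and 0 of 10 were called lower against 1.90% (adjusted p under 0.05). At an unadjusted p under 0.05, 2 of the 10 were lower and 1 was higher, where 12.6% of all tested genes were lower and 13.5% higher, so these counts were near those of all genes. For 1 gene in each direction the groups did not overlap, Tlr5 and Cd14, whereas among all tested genes 8.93% were higher without overlap and 7.63% lower without overlap. DESeq2 called Tlr5 higher and Cd14 lower, against 6.58% of genes called higher and 6.37% called lower by that test.

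Depth ran from 17095433 to 28780140 read pairs on genes per mouse. Mouse 308 of the AAV8-AGXT group stood apart, with the smallest share of read pairs on genes, 56.3% where the highest mouse had 69.1%, and with the lowest CPM of all 8 mice for 9 of the 10 genes, Tlr5 being the exception. It also had the lowest summed CPM of macrophage markers, 185, where mice 309, 316 and 319 reached at least 564. Log2 fold changes of most of the 10 genes are therefore also given without this mouse, whereas levels per length and ratios between genes include it. The mouse gene Agxt, which the human transgene does not encode, had 148 to 180 CPM in AAV8-GFP mice and 201 to 405 CPM in AAV8-AGXT mice. The human transcript was not analysed here. Read pairs were aligned to the mouse genome, and whether some of those on Agxt came from the transgene was not tested. Over all genes 290 were called lower and 374 higher, which became 857 and 144 with total counts in place of TMM, a scaling that moved the median log2 fold change of all genes to -0.22, and 298 and 254 with upper-quartile scaling.

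**Figure D1:**
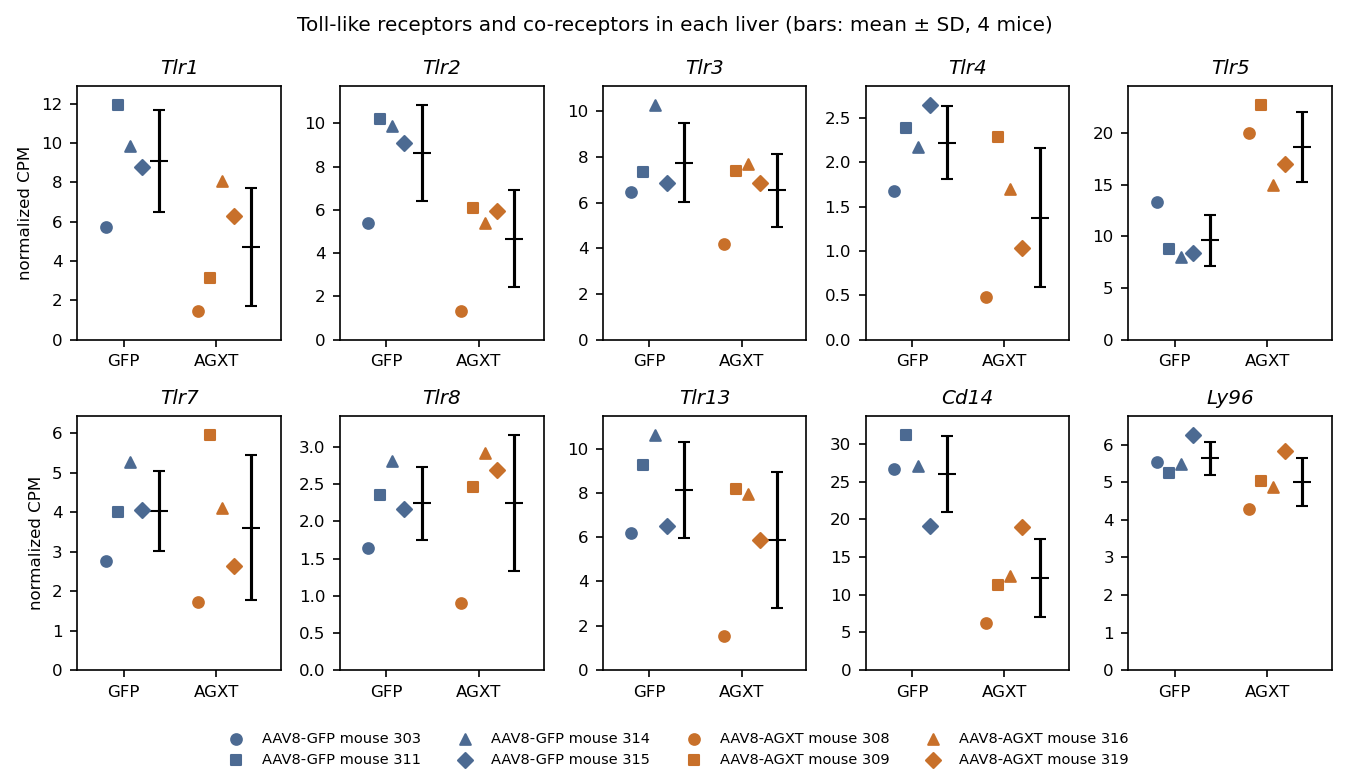
Level of each of the 10 genes in each mouse, in CPM on linear axes that start at 0, with symbols for mice and bars for the mean ± SD of 4 mice. For Tlr5 all 4 AAV8-AGXT mice lay above all 4 AAV8-GFP mice, for Cd14 all lay below, and for the other 8 genes the groups overlapped.

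Where the annotation places the genes bears on how their counts can be read. In GRCm38, Tlr5 (ENSMUSG00000079164) lies on chromosome 1 at 182954788 to 182976044, and its 5 exon blocks add up to 4790 bases. On chromosome 1, Ly96 spans 16688051 to 16709611. Tlr1 and Tlr2 lie on chromosomes 5 (64924679 to 64933563) and 3 (83836272 to 83841767), and Tlr4 on chromosome 4 (66827584 to 66930284). Tlr7 (167304929 to 167330558) and Tlr8 (167242696 to 167264329) are neighbours on the reverse strand of the X chromosome, which also holds Tlr13 (106143204 to 106160493). For 9 of the 10 genes no exon overlaps an exon of another gene. Tlr3, on chromosome 8 (45395665 to 45411080), shares 7.32% of its exon bases with Gm45542 on the opposite strand, and since it is not stated whether counting used strand, its counts are uncertain to that extent. Tlr1 has a close paralog in Tlr6, and read pairs that aligned equally well to both would have been left uncounted.

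Sequence upstream of the start was read for the genes with an entry in the RefSeq promoter table (GRCm38.p6), Tlr1, Tlr2, Tlr3, Tlr5, Tlr8 and Tlr13. Printed are the 250 bases before the start of Tlr5, the gene that rose, of Tlr8, whose group means were equal to 3 digits, and of Tlr1, whose mean was lower without passing the test. Capitals mark matches to the motifs named next, which for Tlr5 and Tlr8 read on the opposite strand. Tlr5 is from chr1:182954538-182954787 on the forward strand, Tlr8 from chrX:167264330-167264579 on the reverse strand, and Tlr1 from chr5:64933559-64933808 on the reverse strand.
Tlr5: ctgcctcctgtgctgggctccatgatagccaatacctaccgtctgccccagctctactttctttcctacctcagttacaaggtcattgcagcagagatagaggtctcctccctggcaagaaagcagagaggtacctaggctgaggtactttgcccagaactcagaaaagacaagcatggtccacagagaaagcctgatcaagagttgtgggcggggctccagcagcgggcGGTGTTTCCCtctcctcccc
Tlr8: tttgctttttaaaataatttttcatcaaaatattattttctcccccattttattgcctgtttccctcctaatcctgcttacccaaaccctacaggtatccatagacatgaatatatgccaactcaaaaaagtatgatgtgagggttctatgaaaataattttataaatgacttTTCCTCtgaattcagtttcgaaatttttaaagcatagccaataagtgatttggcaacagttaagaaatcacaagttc
Tlr1: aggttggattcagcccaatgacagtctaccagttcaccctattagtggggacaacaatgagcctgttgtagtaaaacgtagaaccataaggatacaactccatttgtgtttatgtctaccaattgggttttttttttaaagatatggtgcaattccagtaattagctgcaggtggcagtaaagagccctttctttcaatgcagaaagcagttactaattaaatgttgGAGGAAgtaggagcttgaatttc

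Both strands were searched for 3 motifs, and no match of one motif overlapped a match of another in the printed windows. An NF-κB type, GGG followed by any 5 bases and CC, occurred upstream of Tlr5, Tlr2 and Tlr3, and in 45.8% of the 32851 windows of the same length in the table. In Tlr5 it began 20 bases before the start, and the 3 matches of Tlr2 overlap each other. A PU.1 type, GAGGAA, occurred upstream of Tlr8, Tlr13 and, of the 2 starts of Tlr1, the printed one, and in 23.3% of windows. No match to an interferon response type, GAAA followed by any 2 bases and GAAA, was found in these windows, and 2.98% of windows hold it. These are matches of letters and nothing about binding was measured.

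Tlr5, the flagellin receptor, had 13.3, 8.75, 7.98 and 8.42 CPM in AAV8-GFP mice 303, 311, 314 and 315, and 19.95, 22.71, 14.95 and 17.04 CPM in AAV8-AGXT mice 308, 309, 316 and 319. The lowest AAV8-AGXT mouse was above the highest AAV8-GFP mouse, mouse 303, which lay apart from the rest of its group. On the log2 scale the fold change was 0.95 ± 0.20 (SE), with a 95% interval of 0.52 to 1.39, and the adjusted p of edgeR's quasi-likelihood test was 0.0366. The exact two-sided permutation test over the 70 arrangements of mice gave p = 0.0286, the smallest p this design allows. Counts behind these values were 173 to 378 read pairs per mouse. Leaving out single mice kept the log2 fold change between 0.82 and 1.15, but the call held in 2 of 8 such fits, and the edgeR adjusted p was 0.143 without mouse 311, 0.100 without 314, 0.0885 without 319, 0.0723 without 308, 0.0542 without 309 and 0.0524 without 315. Among 9 other ways of testing or scaling, 8 called Tlr5 higher, DESeq2 at an adjusted p of 0.000691, and total counts did not (log2 fold change 0.71, adjusted p 0.0594 by edgeR).

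Cd14 had 26.7, 31.2, 27.1 and 19.2 CPM in AAV8-GFP mice 303, 311, 314 and 315, and 6.28, 11.3, 12.5 and 18.9 CPM in AAV8-AGXT mice 308, 309, 316 and 319. The gene lies in 1 exon block on chromosome 18 (36725067 to 36726798), and CD14 is the membrane-anchored protein that takes up lipopolysaccharide and presents it to TLR4 and MD-2. The groups did not overlap, but mice 315 and 319 were nearly level. Its log2 fold change was -1.08 ± 0.28 (SE), with a 95% interval of -1.71 to -0.45, at an adjusted p of 0.0610 by edgeR's quasi-likelihood test and an exact permutation p of 0.0286. Under the Wald test of DESeq2 the adjusted p was 0.00588, and Cd14 was called lower in 5 of the 9 other ways of testing or scaling. It was called in 0 of 8 fits that left out 1 mouse, and without mouse 308 the log2 fold change was -0.88 (edgeR adjusted p 0.0789). In bulk tissue, fewer cells of a type and less RNA per cell cannot be told apart.

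Ly96, which encodes MD-2, the subunit of the TLR4 complex that binds the lipid part of lipopolysaccharide, was the steadiest of the 10 genes. Its CPM were 5.54, 5.26, 5.49 and 6.26 in AAV8-GFP mice 303, 311, 314 and 315, and 4.28, 5.05, 4.88 and 5.85 in AAV8-AGXT mice 308, 309, 316 and 319. The ranges overlapped, and the log2 fold change was -0.17 ± 0.16 (SE), with a 95% interval of -0.52 to 0.18 (edgeR adjusted p 0.538). Tlr4 itself was among the scarcest, at 1.68, 2.39, 2.17 and 2.65 CPM in AAV8-GFP mice and 0.483, 2.28, 1.69 and 1.04 CPM in AAV8-AGXT mice, in the same order. Mouse 308 had 7 read pairs on Tlr4. The log2 fold change of Tlr4 was -0.68 ± 0.39 (SE), with a 95% interval of -1.56 to 0.19 (edgeR adjusted p 0.296), and it was -0.43 without mouse 308.

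Tlr1 and Tlr2, which pair at the cell surface to sense lipoproteins, had similar levels and estimates. Tlr1 had 5.74, 11.9, 9.83 and 8.78 CPM in AAV8-GFP mice 303, 311, 314 and 315, and 1.45, 3.12, 8.06 and 6.28 CPM in AAV8-AGXT mice 308, 309, 316 and 319. Tlr2 had 5.39, 10.2, 9.87 and 9.09 CPM in the AAV8-GFP mice, and 1.31, 6.07, 5.39 and 5.95 CPM in the AAV8-AGXT mice. For both genes mouse 303 was the lowest of its group and lay within the range of the AAV8-AGXT mice. For Tlr1 the log2 fold change was -0.92 ± 0.44 (SE), with a 95% interval of -1.89 to 0.05 (edgeR adjusted p 0.211). For Tlr2 it was -0.87 ± 0.39 (SE), with a 95% interval from -1.75 to just below 0 (edgeR adjusted p 0.191). Without mouse 308 these values were -0.65 and -0.59.

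The endosomal receptors of nucleic acids showed no change that passed the test. Tlr13, which senses bacterial ribosomal RNA, had 6.17, 9.27, 10.6 and 6.48 CPM in AAV8-GFP mice 303, 311, 314 and 315, and 1.52, 8.17, 7.96 and 5.85 CPM in AAV8-AGXT mice 308, 309, 316 and 319. Tlr3, the receptor of RNA duplexes, had 6.48, 7.35, 10.3 and 6.88 CPM in the AAV8-GFP mice and 4.21, 7.39, 7.70 and 6.84 CPM in the AAV8-AGXT mice. Apart from mouse 308, the AAV8-AGXT mice lay within the AAV8-GFP range for Tlr3, and for Tlr13 mouse 319 was also just under it. Estimates on the log2 scale were -0.46 ± 0.41 (SE) for Tlr13 and -0.24 ± 0.22 (SE) for Tlr3, with 95% intervals of -1.38 to 0.45 and -0.74 to 0.26, and without mouse 308 the estimates were -0.17 and -0.10.

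Tlr7, whose product senses single-stranded RNA, and Tlr8 are the neighbours on the X chromosome. Tlr7 had 2.77, 4.01, 5.26 and 4.06 CPM in AAV8-GFP mice 303, 311, 314 and 315, and 1.73, 5.95, 4.11 and 2.64 CPM in AAV8-AGXT mice 308, 309, 316 and 319. Tlr8 had 1.64, 2.36, 2.81 and 2.16 CPM in the AAV8-GFP mice and 0.897, 2.46, 2.93 and 2.69 CPM in the AAV8-AGXT mice. The group means of Tlr8 were equal to 3 digits, 2.24 ± 0.49 and 2.24 ± 0.92 CPM (SD, n = 4 per group). Fitted log2 fold changes were -0.15 ± 0.35 (SE) for Tlr7 and 0.02 ± 0.34 (SE) for Tlr8, with 95% intervals of -0.94 to 0.63 and -0.74 to 0.77, which include changes of moderate size in either direction. The sign for Tlr7 turned without mouse 308 (0.055), and the sign for Tlr8 turned under upper-quartile scaling (-0.040) and total counts (-0.20).

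**Figure D2:**
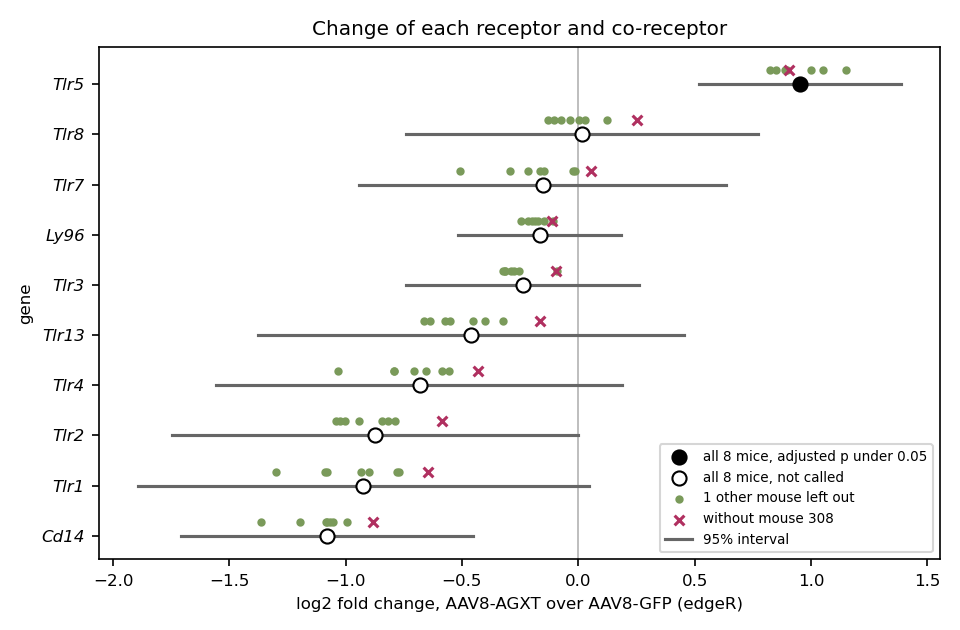
Log2 fold change of each gene, AAV8-AGXT over AAV8-GFP, with large points for the edgeR estimate (filled where called), lines for its 95% interval, small points for fits without 1 mouse and crosses for the fit without mouse 308. Tlr5 is at 0.95 and is the single called gene, Cd14 is at -1.08, and the estimates of the others run from -0.92 to 0.02.

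To compare levels between genes, CPM were divided by the kilobases of exon of each gene. In AAV8-GFP mice the order was Cd14 (15.04 CPM per kb), Ly96 (5.52), Tlr2 (2.87), Tlr1 (2.71), Tlr5 (2.01), Tlr13 (1.89), Tlr3 (1.49), Tlr7 (0.986), Tlr8 (0.625) and Tlr4 (0.3996). The ranges over mice separated Cd14 from Ly96 and Ly96 from Tlr2, and every other pair of neighbours overlapped. In AAV8-AGXT mice Tlr5 stood at place 3 in place of 5, at 3.896 ± 0.708 CPM per kb (SD, n = 4), and the other genes kept their relative order. Tlr1 exceeded Tlr5 per kb in 3 of 4 AAV8-GFP mice and in 0 of 4 AAV8-AGXT mice. Cd14 still led at 7.08 ± 3.003 CPM per kb, but its range there overlapped that of Ly96 (4.91 ± 0.63), and with the longest transcript as the length Ly96 came first in this group.

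**Figure D3:**
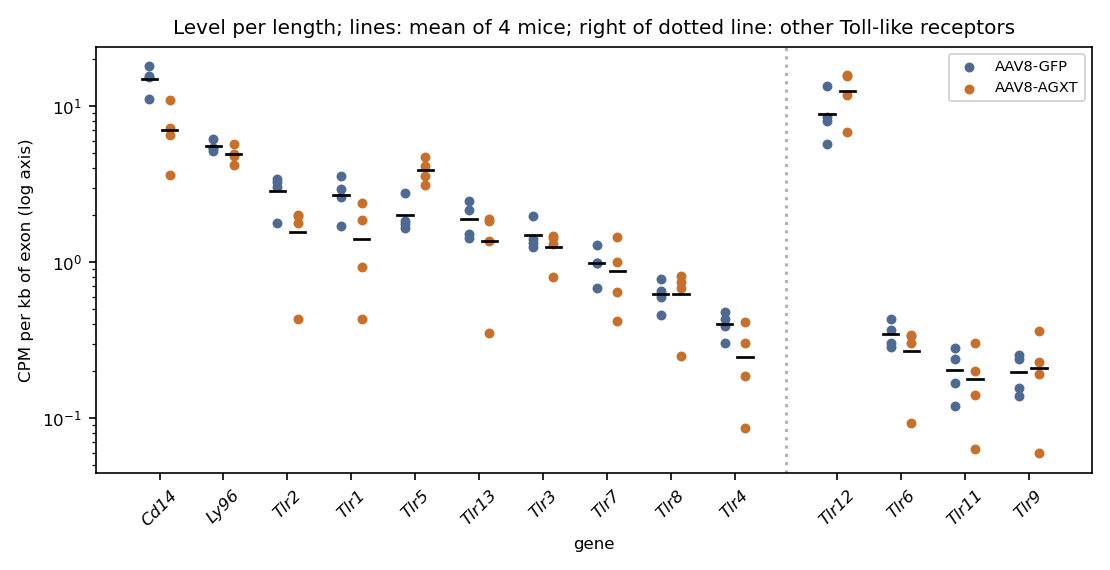
Level of the 10 genes in CPM per kb of exon on a log axis, with points for mice and lines for the mean of each group, and Tlr12, Tlr6, Tlr11 and Tlr9 to the right of the dotted line. By group mean among the 10 genes, Cd14 and Ly96 lie above the receptors, Tlr4 is lowest, and Tlr5 moves from 2.01 to 3.896 CPM per kb. In AAV8-AGXT mice the range of Tlr5 (3.12 to 4.74) overlaps those of Ly96 (4.19 to 5.73) and Cd14 (3.63 to 10.9).

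Partners of a complex and other pairs of these genes were set against each other within each liver, as a description of 8 ratios per length. The ratio of Tlr1 to Tlr2 was 0.945 ± 0.081 in AAV8-GFP mice and 0.939 ± 0.363 in AAV8-AGXT mice (SD, n = 4 per group), so that the mean stayed near parity while the spread was wider. For Tlr7 to Tlr8 the values were 1.57 ± 0.09 and 1.48 ± 0.55. Cd14 to Ly96 was 2.76 ± 0.70 in AAV8-GFP mice and 1.40 ± 0.43 in AAV8-AGXT mice, and the ranges overlapped, with 1.81 as the lowest AAV8-GFP value and 1.91 as the highest AAV8-AGXT value. Cd14 to Tlr4 was 39.1 ± 11.6 and 34.9 ± 19.1, both with wide ranges. Ly96 to Tlr4 was 14.2 ± 2.64 and 26.6 ± 16.5, the highest being 48.2 in mouse 308. Tlr2 to Tlr4 was 7.13 ± 1.20 and 6.58 ± 2.69, and Tlr13 to Tlr2 was 0.672 ± 0.135 and 0.869 ± 0.151, with overlapping ranges for all 3 of these pairs. Tlr5 to Tlr4, surface receptors for flagellin and lipopolysaccharide, ran from 3.69 to 9.20 in AAV8-GFP mice and from 10.2 to 47.9 in AAV8-AGXT mice, the highest being mouse 308 with its 7 read pairs on Tlr4.

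Because macrophages carry many of these receptors, marker lists of liver cell types were measured beside them. Of 8 macrophage markers 7 had a lower estimate in AAV8-AGXT mice, 0 passed the edgeR quasi-likelihood test, 3 were lower at an unadjusted p under 0.05 (12.6% of all tested genes) and DESeq2 called 2 lower (6.37%). Their summed CPM ran from 712 to 1176 in AAV8-GFP mice and from 185 to 752 in AAV8-AGXT mice. Of 9 markers of recruited macrophages and monocytes all had a lower estimate and 1, Cd9, fell, while 6 were lower at an unadjusted p under 0.05 and 5 by DESeq2, with sums of 397 to 910 CPM against 98.2 to 415 CPM. Of 6 markers of resident Kupffer cells 5 had a higher estimate and 1, the scavenger receptor Cd163, rose, while 3 were higher at an unadjusted p under 0.05 (13.5% of all tested genes) and 2 by DESeq2 (6.58%), with sums of 232 to 363 CPM against 191 to 774 CPM. Of 6 hepatocyte markers all had a higher estimate and 2, Cps1 and Arg1 of the urea cycle, rose. At an unadjusted p under 0.05, 3 were higher, and DESeq2 called 2 higher. Their sums were 43084 to 52261 CPM against 53189 to 74109 CPM. Higher estimates, the direction of Tlr5, were thus found for these, for 5 of 6 Kupffer cell markers and for all 5 markers of sinusoidal endothelium. The part of these cell types in the results for the 10 genes was not tested.

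Neutrophil markers summed to 20.9 to 33.0 CPM in AAV8-GFP mice and 6.90 to 22.5 CPM in AAV8-AGXT mice, with Ly6g at 0 in all AAV8-GFP mice. Sums for dendritic cells were 11.8 to 17.1 against 8.92 to 12.1 CPM, for B cells 3.75 to 9.12 against 3.73 to 6.42 CPM, and for T cells 5.31 to 7.53 against 2.90 to 5.34 CPM. For sinusoidal endothelium they were 110 to 164 against 113 to 215 CPM, for stellate cells 336 to 544 against 205 to 438 CPM, and for cholangiocytes 23.5 to 62.6 against 13.7 to 33.2 CPM. In none of these 7 lists did edgeR's quasi-likelihood test call a gene, and at an unadjusted p under 0.05 the numbers of lower genes were 1 for neutrophils, 1 for dendritic cells, 2 for T cells, 2 for stellate cells and 4 for cholangiocytes, in lists of 4 or 5 tested genes where 12.6% of all tested genes were lower at that p.

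Each gene was then expressed per 100 CPM of the summed macrophage markers in the same liver. Tlr5 had 1.87, 0.744, 0.775 and 0.991 in AAV8-GFP mice 303, 311, 314 and 315, and 10.8, 4.03, 1.99 and 2.48 in AAV8-AGXT mice 308, 309, 316 and 319. Tlr8 had 0.2303, 0.2003, 0.2731 and 0.254 in the AAV8-GFP mice and 0.485, 0.437, 0.389 and 0.391 in the AAV8-AGXT mice. For both genes the groups did not overlap, and the log2 differences were 1.91 and 0.83 (exact permutation p = 0.0286 for each, unadjusted over 10 genes). The summed markers had a mean of 942 CPM in AAV8-GFP mice and 547 CPM in AAV8-AGXT mice. A gene with unchanged CPM therefore comes out higher in this ratio, and Tlr8 had a log2 fold change of 0.02 in CPM. How many of all genes come apart in this ratio was not counted. Cd14 was at 2.82 ± 0.64 and 2.45 ± 0.77 per 100 marker CPM (SD, n = 4 per group), a log2 difference of -0.23 (exact permutation p = 0.4). Tlr1 and Tlr2 differed by -0.23 and -0.13 on the log2 scale (exact permutation p = 0.371 and 0.486). The other log2 differences were 0.05 for Tlr4, 0.25 for Tlr13, 0.67 for Tlr7, 0.68 for Tlr3 and 0.77 for Ly96, with exact permutation p between 0.0571 and 0.914. Without mouse 308 the differences were 1.41 for Tlr5, 0.77 for Tlr8, 0.51 for Tlr7, 0.42 for Tlr3 and 0.38 for Ly96.

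This comparison depended on the marker. Against Adgre1 alone, which encodes the macrophage antigen F4/80 and had 13.8 ± 4.18 and 15.02 ± 7.98 CPM (SD, n = 4 per group), Cd14 and Tlr2 were the genes whose exact permutation p reached 0.0286, with log2 differences of -1.18 and -1.07. Tlr5 was then at 0.96 (exact permutation p = 0.2) and Tlr8 at -0.11 (exact permutation p = 0.714). Against the macrophage, Kupffer cell and recruited macrophage lists summed together, Tlr5 and Tlr8 stood apart again, at 1.80 and 0.72.

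**Figure D4:**
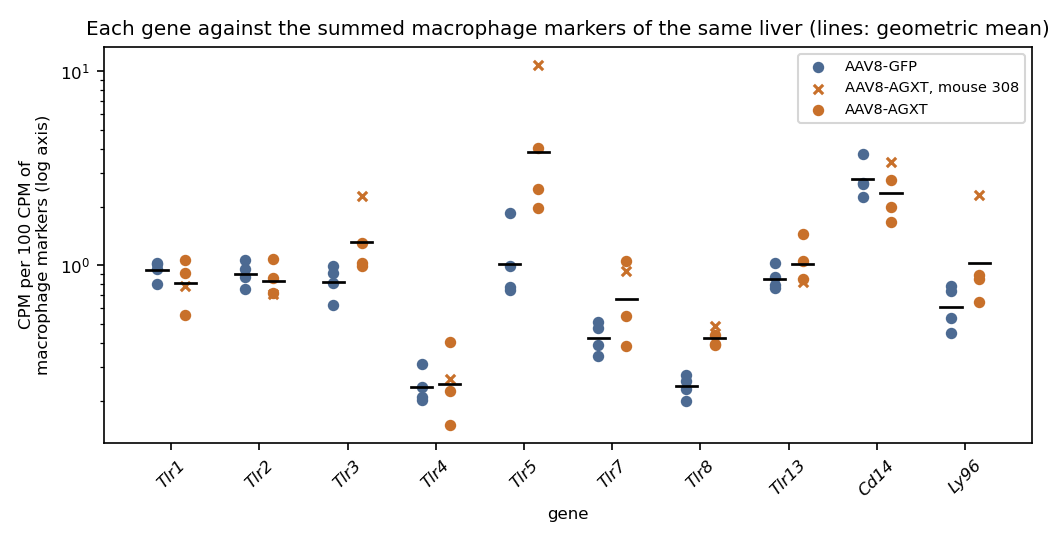
Level of each gene per 100 CPM of the 8 summed macrophage markers, on a log axis, with points for mice, crosses for mouse 308 and lines for the geometric mean of each group. The groups are apart for Tlr5 and Tlr8, with AAV8-AGXT mice higher, and Cd14 overlaps at geometric means of 2.77 and 2.36. The summed markers have a mean of 942 CPM in AAV8-GFP mice and 547 CPM in AAV8-AGXT mice, which raises the ratio of a gene with unchanged CPM.

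The rest of the Toll-like receptor pathway was read from 72 genes in 7 lists, of which 67 were tested. Of these, 5 fell and 0 rose by edgeR's quasi-likelihood test (1.90% and 2.45% of all tested genes). The median log2 fold change was -0.18, and 43 had a lower estimate, beside a median of 0.02 and 47.7% of all tested genes. At an unadjusted p under 0.05, 21 of the 67 were lower and 4 higher (12.6% and 13.5% of all tested genes), and DESeq2 called 14 lower and 1 higher (6.37% and 6.58% of its genes). The 5 were 2 target genes, 2 transcription factors and 1 inhibitor. Groups did not overlap for 14 of the 67 genes that were lower and 3 that were higher, beside 7.63% and 8.93% of all tested genes. Without mouse 308, 2 pathway genes were called lower, and without mouse 311, 314 or 319 there were 0, in fits that called at most 4 lower and 12 higher genes over the whole table.

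Among the target genes, edgeR called 2 of 14 tested lower and 12 had a lower estimate, at a median of -1.25. At an unadjusted p under 0.05, 9 of the 14 were lower (12.6% of all tested genes), and DESeq2 called 9 lower (6.37% of its genes). For 6 of the 14 the AAV8-AGXT mice were lower without overlap (7.63% of all tested genes). Cxcl2, a chemokine for neutrophils, had 1.695 ± 0.50 CPM in AAV8-GFP mice and 0.564 ± 0.055 CPM under AAV8-AGXT (SD, n = 4 per group), which is -1.59 as a log2 fold change (edgeR adjusted p 0.0335). Its counts were low, at 9, 10, 10 and 11 read pairs in AAV8-AGXT mice 308, 309, 316 and 319, so the small SD there is uncertain. Ccl4, a chemokine for monocytes and lymphocytes, had 2.06 ± 0.69 and 0.581 ± 0.295 CPM, or -1.79 as a log2 fold change (edgeR adjusted p 0.0427). It had 4, 10, 19 and 10 read pairs in the same AAV8-AGXT mice. Among 9 transcription factors 2 fell, Nfkb2 and Relb, the pair that forms the non-canonical NF-κB dimer. Nfkb2 went from 37.6 ± 5.50 to 21.3 ± 3.58 CPM, a log2 fold change of -0.82 (edgeR adjusted p 0.0334). It shares 18.11% of its exon bases with genes on the opposite strand, so its counts carry the uncertainty about strand given for Tlr3. Relb went from 18.2 ± 3.64 to 8.04 ± 3.08 CPM, a log2 fold change of -1.18 (edgeR adjusted p 0.0410). Among 10 tested inhibitors 1 fell, Tnfaip3, which encodes A20, the ubiquitin-editing brake on NF-κB, at 15.1 ± 2.71 and 7.07 ± 1.82 CPM (log2 fold change -1.10, edgeR adjusted p 0.0341).

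In the 4 other lists 0 genes were called by edgeR. Among 8 chaperones and accessory proteins, the smallest p-values belonged to Ly86, the MD-1 subunit that pairs with CD180 (log2 fold change -1.02, edgeR adjusted p 0.122), and Unc93b1, which carries nucleic acid receptors to endosomes (-0.50, edgeR adjusted p 0.134). Among 6 adaptors the median was -0.03, and Ticam2 was at -0.88 (edgeR adjusted p 0.251) and Pik3ap1 at 0.13 (edgeR adjusted p 0.772). Ticam2 had few counts, from 2 to 32 read pairs per mouse. Among 16 kinases and ubiquitin ligases the median was 0.07, and Chuk, encoding IKKα, was at 0.34 (edgeR adjusted p 0.0866) without overlap between the groups, as was Traf6 at 0.34 (edgeR adjusted p 0.141). Unadjusted p-values under 0.05 were counted for 3 lower chaperones and for 1 lower and 4 higher kinases. Among the 4 other Toll-like receptors in the tables, Tlr12 was at 0.49 (edgeR adjusted p 0.325) and Tlr6 at -0.35 (edgeR adjusted p 0.573), and 0 had an unadjusted p under 0.05.

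**Figure D5:**
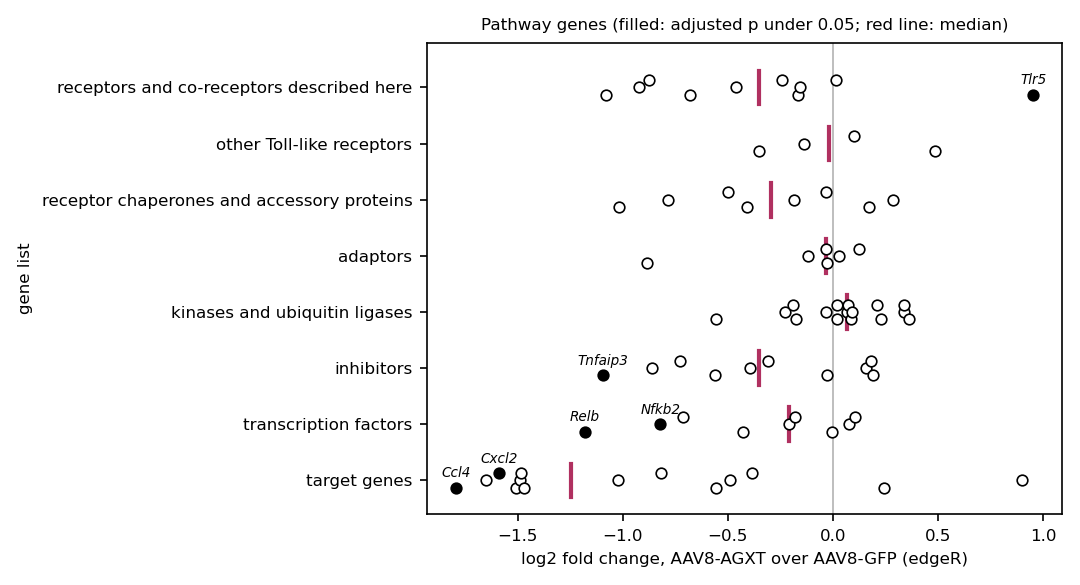
Log2 fold change of the 67 tested pathway genes by list, AAV8-AGXT over AAV8-GFP, with points for genes, filled where called, and lines for the median, and the 10 receptors and co-receptors in the top line of the plot. Kinases centre near 0.07 and target genes at -1.25.

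The profile of each gene over the 8 mice was also compared with that of 13221 other protein-coding genes, as the root mean square difference of log2 CPM after centring, where 0 is an identical profile. Tlr5 was nearest to Cpox, an enzyme of haem synthesis (0.14), and Hacl1, a peroxisomal lyase of fatty acid α-oxidation (0.14). The nearest to Cd14 were Ckb (0.17), the brain-type creatine kinase, and Ccna2 (0.19), cyclin A2. Tlr2 was nearest to Fgl2 (0.17) and Myo1f (0.18), a myosin of leukocytes, and Tlr1 to Il2rg (0.19), the common cytokine receptor γ chain, and Clec12a (0.20). Tlr4 was nearest to Scx (0.16) and Cgas (0.18), the cytosolic DNA sensor, and Ly96 to Pfkl (0.07) and Iqsec1 (0.07). Tlr3 was nearest to Asah1 (0.05), acid ceramidase, and Rtn4 (0.06), Tlr7 to Tnfrsf21 (0.16) and Hnmt (0.17), and Tlr13 to Hacd4 (0.15) and Oas3 (0.16). Entpd1, the ectonucleotidase CD39, was among the 2 nearest to Tlr8 (0.16). Small distances come easily to genes that vary little, such as Ly96.

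Among the 10 genes themselves the closest profiles were Tlr3 and Tlr8 (0.26), Ly96 and Tlr3 (0.28) and Tlr2 and Tlr13 (0.30). Tlr2 ranked 71 among the profiles nearest to Tlr13, and 148 among those nearest to Tlr1. Tlr3 ranked 41 among those nearest to Tlr8, and Tlr8 ranked 689 among those nearest to Tlr3. Ly96 ranked 1148 among those nearest to Tlr3, and Tlr3 ranked 5679 among those nearest to Ly96. Tlr5 was far from the rest, since its nearest of the 9 others, Ly96, was at 0.65 and ranked 8204.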

How the data were processed

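Liver RNA of 8 mice was sequenced as paired-end 76-bp stranded mRNA libraries. Per the labels and the methods, the authors ran FastQC 0.11.8, then Trimmomatic 0.35 for trimming, HISAT2 2.1.0.13 for alignment against GRCm38 and HTSeq for gene-level counting, and the deposited values are raw counts per gene, with no normalization. The strand option and overlap mode of counting are not given in the sources used here. Tallies of read pairs on no gene (30.9% to 43.7%) were left out. Mice were grouped by the treatment in the labels.

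Counts were fitted in R 4.3.3 with edgeR 4.0.16 (filterByExpr, TMM, quasi-likelihood test, treatment as the only term, Benjamini-Hochberg over 15248 genes, call at adjusted p under 0.05), with a common biological coefficient of variation of 23.3%. Fold changes used a prior count of 0.125 and log2 CPM a prior count of 2. Exons came from GENCODE M21, which matched 52489 of 52636 genes. Alternatives used DESeq2 1.42.0 and limma 3.58.1. The genes, lists and rule for naming genes (the 10 genes, called genes of each list or else those of smallest p, called marker genes, and the 2 nearest profiles per gene) were chosen with earlier results of these data known. One of the nearest profiles is not reported here. The authors used DESeq2.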

Additional observations from a re-analysis of the deposited data

Results flagged for a closer look

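In each of the 20 groups of 4 mice (10 genes in 2 groups), the gap between the most extreme mouse and its neighbour was compared with the range of the group, a test that by chance marks about 1 in 20 groups. It marked 2 values. Mouse 308 had the lowest Tlr2 level of the AAV8-AGXT mice, 1.31 CPM, where the other 3 had 5.39 to 6.07 CPM, and without it the group mean was 5.80 ± 0.36 CPM (SD, n = 3). Mouse 303 had the highest Tlr5 level of the AAV8-GFP mice, 13.3 CPM, where the other 3 had 7.98 to 8.75 CPM. Without mouse 303 the log2 fold change of Tlr5 was 1.15 (edgeR adjusted p 0.0297).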

How the results depend on the processing

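With 4 mice per group, calls near the threshold depend on single mice. No paired analysis was possible because mouse numbers are not shared between the groups. Of the 10 genes, 1 (Cd14) was called lower under DESeq2, total counts, no filter on low counts, limma-voom and limma with quality weights, where edgeR called 0, and 0 were called lower in each fit without 1 mouse. Total counts called 0 of the 10 higher, and leaving out 1 mouse gave 0 to 1. Of the pathway genes, 14 were called lower by DESeq2, 10 with total counts, 10 with no filter, 3 with at least 10 counts in every mouse, 8 with quality weights and 0 to 5 on leaving out 1 mouse, against 5. DESeq2 called 1, Chuk, higher. The filter of at least 10 counts in every mouse removes Cxcl2 and Ccl4 before testing, since mouse 308 had 9 and 4 read pairs on them. Leaving out mice 303 and 308 together, chosen after seeing the data, gave 1 lower. Over all genes, 0 lower and 2 higher genes were called without mouse 311, 4 and 11 without 314 and 2 and 12 without 319. The cause was not tested.

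The log2 fold change of Tlr8 reversed to -0.040 with upper-quartile scaling, -0.20 with total counts, -0.014 with at least 10 counts, which drops Tlr4, and -0.041 with limma-voom, and ran from -0.13 to 0.25 on leaving out 1 mouse. That of Tlr7 ran from -0.51 to 0.055. Per macrophage-marker level, Adgre1 alone reversed Tlr3 (-0.26), Tlr4 (-0.90), Tlr7 (-0.28), Tlr8 (-0.11), Tlr13 (-0.70) and Ly96 (-0.18), the 3 lists together reversed Tlr4 (-0.064), and leaving out 1 mouse moved Tlr4 between -0.19 and 0.28. The exact p of Tlr5 in this comparison was 0.0571 without mouse 308, 309, 311, 314 or 315. The directions of the other 8 receptors and co-receptors held in every alternative fit of the log2 fold change.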

Other observations

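Tlr12, an endosomal receptor of profilin that is outside the 10 genes, had the highest level per length of all Toll-like receptors in the tables. It had 13.4, 8.56, 8.09 and 5.75 CPM per kb in AAV8-GFP mice 303, 311, 314 and 315, and 15.6, 6.81, 11.9 and 15.9 CPM per kb in AAV8-AGXT mice 308, 309, 316 and 319. The ranges overlapped. Its order of mice was unlike that of Tlr1 or Tlr2, since mouse 308 was among the highest. Tlr6, Tlr9 and Tlr11 were at 0.348, 0.198 and 0.202 CPM per kb in AAV8-GFP mice, below the mean of every one of the 10 genes in that group.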
